A study of Homo sapiens with 8 samples.

Results

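The 10 genes described were grouped as AP-1 and EGR immediate early factors. The group holds the AP-1 subunits FOS, FOSB, FOSL1, FOSL2, JUN, JUNB and JUND, the zinc finger factors EGR1 and EGR3, and the early response gene IER3. They were taken by symbol from the 19775 genes that had a probe set of their own on Affymetrix U133 Plus 2.0 arrays, each through its brightest probe set, and all 10 were found. The arrays measured total RNA of NCI-H1975, an established human lung adenocarcinoma line that grows on a mutant EGFR receptor, after 24 hours of treatment. There were 8 conditions with 1 array each: 2 mM L-histidinol with 10 nM osimertinib plus 1 µM alpelisib, with 10 nM osimertinib, with 1 µM alpelisib or with DMSO vehicle, and the same 4 drug treatments without L-histidinol. Of the agents, osimertinib binds mutant EGFR covalently and blocks it, alpelisib blocks the PI3K alpha isoform, and L-histidinol is a histidine analog that blocks charging of histidine onto its tRNA. All cells grew in serum-containing medium.

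AP-1 is a family of dimers of a Jun protein with a Fos protein or with another Jun protein, joined by a leucine zipper. Immediate early genes are induced within minutes of a growth factor signal, without new protein synthesis, through ERK acting on ETS-family cofactors of serum response factor (SRF). FOS and EGR1 messages are short-lived, whereas FOSL1 follows sustained ERK activity and is a common AP-1 subunit of carcinoma cells with active EGFR or RAS.

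Promoter sequences were available from RefSeq (GRCh38.p14) for 7 of the 10 genes, FOS, FOSB, FOSL2, JUN, JUNB, JUND and EGR1. The 250 bases before the annotated start are shown for 2 genes whose transcripts were lower with osimertinib, EGR1 and FOS, and for 3 whose transcripts were higher, JUNB, JUND and FOSL2, so that the elements of the falling and the rising genes can be set side by side. Capitals mark TGACG on either strand, the core of the cAMP response element, and the CArG box bound by SRF.
EGR1 (chr5:138465229-138465478, plus strand): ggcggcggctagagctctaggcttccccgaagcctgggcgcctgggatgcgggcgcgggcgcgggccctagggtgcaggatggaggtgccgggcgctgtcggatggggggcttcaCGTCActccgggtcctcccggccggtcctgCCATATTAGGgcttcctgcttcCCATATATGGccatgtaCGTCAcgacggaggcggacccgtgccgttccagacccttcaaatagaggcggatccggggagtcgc
FOS (chr14:75278578-75278827, plus strand): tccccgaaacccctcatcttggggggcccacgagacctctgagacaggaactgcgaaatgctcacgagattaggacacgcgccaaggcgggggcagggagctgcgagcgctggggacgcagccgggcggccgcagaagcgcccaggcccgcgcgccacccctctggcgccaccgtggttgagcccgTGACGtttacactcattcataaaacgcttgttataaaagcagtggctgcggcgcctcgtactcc
JUNB (chr19:12791236-12791485, plus strand): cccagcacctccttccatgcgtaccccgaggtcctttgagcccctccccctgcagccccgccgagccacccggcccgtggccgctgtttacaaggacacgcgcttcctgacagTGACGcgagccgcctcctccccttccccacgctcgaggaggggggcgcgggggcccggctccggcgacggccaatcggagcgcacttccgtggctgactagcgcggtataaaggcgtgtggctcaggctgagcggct
JUND (chr19:18281623-18281872, minus strand): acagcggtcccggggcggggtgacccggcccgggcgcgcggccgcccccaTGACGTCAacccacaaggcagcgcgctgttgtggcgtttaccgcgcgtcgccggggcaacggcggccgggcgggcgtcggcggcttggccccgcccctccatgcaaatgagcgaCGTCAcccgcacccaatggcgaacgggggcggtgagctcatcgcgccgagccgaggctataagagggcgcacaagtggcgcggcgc
FOSL2 (chr2:28392608-28392857, plus strand): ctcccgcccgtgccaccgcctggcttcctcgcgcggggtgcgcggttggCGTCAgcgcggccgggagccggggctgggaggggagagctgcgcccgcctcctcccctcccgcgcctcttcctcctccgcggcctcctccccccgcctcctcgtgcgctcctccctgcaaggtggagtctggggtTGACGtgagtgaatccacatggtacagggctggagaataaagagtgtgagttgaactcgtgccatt

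The motifs were chosen with the sequences in view and are a description of the letters only. TGACG on either strand was present in all 7 promoters, including 1 site each in FOSB and JUN, and in 21.2% of 35116 RefSeq windows of the same length. The complete cAMP response element TGACGTCA, which contains TGACG, occurred once, in JUND, at 200 to 193 bases before the start, and in 1.65% of all windows. EGR1 carried 2 CArG boxes, at 105 to 96 and at 83 to 74 bases before the start, against 1.16% of all windows with any. The AP-1 element TGACTCA (either strand) was in none of the 7 windows and in 4.2% of all windows. Its variant TGACATCA was present in JUN, at 67 to 60 bases before the start, and in 2.37% of all windows. Within these windows the genes with lower and with higher transcripts thus both held TGACG, and of the 5 sequences shown the CArG box was in EGR1 alone. Bases further upstream than 250 were not searched, so a gene without a CArG box here may carry one outside the window.

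**Figure D1:**
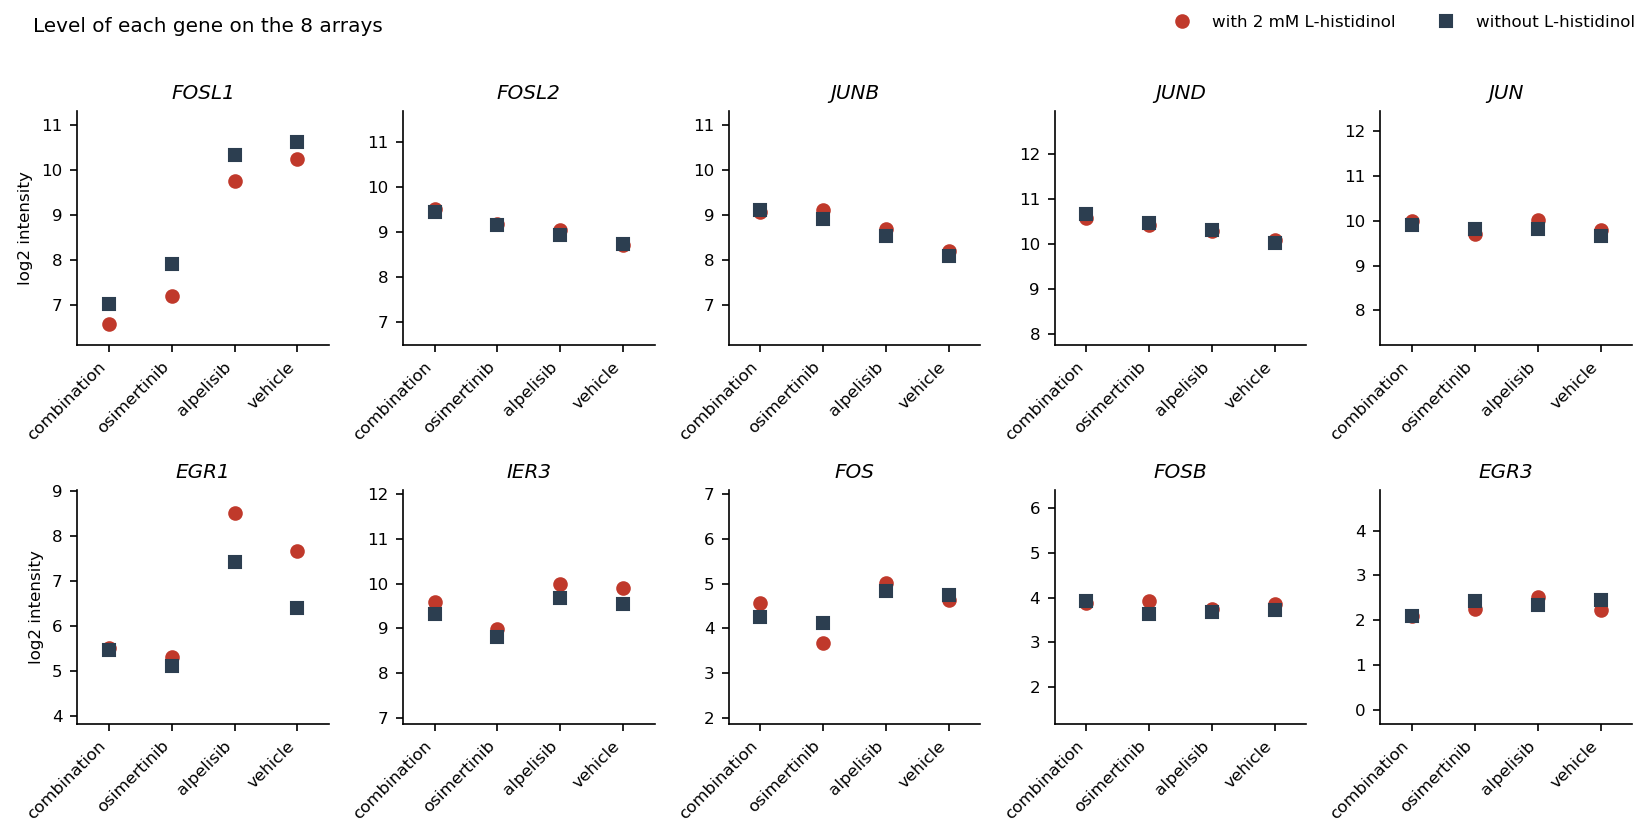
Log2 intensity of the 10 genes (1 panel each, all panels spanning the same number of log2 units) by drug treatment, with L-histidinol (red circles) and without it (dark squares), 1 array a point. FOSL1 and EGR1 were low on the 4 arrays with osimertinib, FOSL2, JUNB and JUND were high on them, and FOSB and EGR3 were nearly flat.

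Each array's median intensity lay between 21.8 and 22.4, and the arrays correlated at r = 0.974 to 0.996 across genes. The 6 lung epithelial markers had mean log2 intensities of 8.53 (NKX2-1) to 12.5 (KRT18), whereas 10 of 11 markers of fibroblasts, leukocytes, endothelium and red cells lay at 2.17 to 5.79. The exception was the collagen COL1A1, at 9.14, which ranged over the arrays between 8.12 and 10.1 and whose part in the results was not tested. For ACTB, the ratio of its 3′ to its 5′ control probe set, a measure of RNA quality, was 1.10 to 1.15 on the 4 arrays with L-histidinol and 1.04 to 1.07 on the 4 arrays without it. For GAPDH the same ratio was not higher with L-histidinol, at 0.966 to 0.982 against 0.978 to 1.01 without it. Differences are log2 differences ± standard error from an additive limma fit of L-histidinol and drug treatment, called at a limma adjusted p below 0.05 over all genes. With 1 array a condition, the spread behind these p-values is only the departure from additive effects between arrays, in which true interactions and noise are mixed. For each gene limma combines that spread (3 degrees of freedom) with a prior estimated over all genes (8.08 degrees of freedom). The spread between replicate arrays is not measured. The labels do not say whether the arrays came from separate cultures, and in RNA of whole cultures a change in all cells and a change in some of them cannot be told apart.

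Osimertinib split the AP-1 subunits. FOSL1 fell 7.43-fold and EGR1 3.55-fold, IER3 and FOS fell less, and JUNB, FOSL2 and JUND rose. The JUND call rests on 1 of its 4 probe sets. FOS was dim and lost its call without the array of L-histidinol with osimertinib. In all, 7 of the 10 genes were called for osimertinib against vehicle, 3 higher and 4 lower, against 30.4% of all genes (16.4% higher and 14% lower). The ranges of the 4 arrays with osimertinib and the 4 without did not overlap for 6 of the 10 genes, against 21.5% of all genes.

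FOSL1 encodes FRA1, a Fos-family subunit that lacks the transactivation domain of FOS. With L-histidinol its intensity was 96.0 with both drugs, 148 with osimertinib and 872 with alpelisib, against 1227 with vehicle. On the arrays without L-histidinol it was 130.1 with both drugs, 240.0 with osimertinib and 1300.0 with alpelisib, against 1594 with vehicle. The 4 arrays with osimertinib were all far below the other 4. FOSL1 fell, with log2 differences from vehicle of -3.65 ± 0.09 with both drugs (adjusted p = 7.72e-10) and -2.89 ± 0.09 with osimertinib (adjusted p = 1.48e-08), and the order of its levels, from both drugs through osimertinib and alpelisib to vehicle, was called at each step. The step between alpelisib and vehicle was the small one, -0.39 ± 0.09 (adjusted p = 0.0134). That call was lost without the alpelisib array (-0.43, adjusted p = 0.0999), its L-histidinol partner (-0.36, adjusted p = 0.236) or the array of L-histidinol with vehicle (-0.30, adjusted p = 0.0790).

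EGR1 is a zinc finger activator of growth factor and tissue factor genes. With L-histidinol its intensity was 45.5 with both drugs, 39.6 with osimertinib and 364 with alpelisib, against 204 with vehicle. Without L-histidinol it was 44.1 with both drugs, 34.4 with osimertinib and 171 with alpelisib, against 84.1 with vehicle. The arrays with osimertinib lay close together and low, whatever else was added, and the other 4 spread widely. EGR1 fell by 1.83 ± 0.25 log2 units with osimertinib (adjusted p = 1.9e-04) and by 1.55 ± 0.25 with both drugs (adjusted p = 2.97e-04). Osimertinib with and without alpelisib did not differ in the test (0.28 ± 0.25, adjusted p = 0.54). The other probe sets of EGR1 gave -1.67 and -1.24 for osimertinib against vehicle.

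IER3, an early response gene that modulates cell survival and ERK signaling, fell by 0.82 ± 0.07 with osimertinib (adjusted p = 7.11e-06). Its intensity with L-histidinol was 771 with both drugs, 511 with osimertinib and 1018 with alpelisib, against 951 with vehicle. Where L-histidinol was absent it was 643 with both drugs, 451 with osimertinib and 815 with alpelisib, against 751 with vehicle. The combination lay between osimertinib and vehicle and was called against each, with a difference of 0.55 ± 0.07 from osimertinib (adjusted p = 7.28e-04) and of -0.26 ± 0.07 from vehicle (adjusted p = 6.9e-03). Alpelisib and vehicle were neighbours that were not told apart (0.11 ± 0.07, adjusted p = 0.365).

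FOS, the founding Fos subunit, was dim throughout, with a mean log2 intensity of 4.48, under the limit of 5 used here for dim genes. Its intensity with L-histidinol was 23.6 with both drugs, 12.8 with osimertinib and 32.4 with alpelisib, against 24.8 with vehicle. Without L-histidinol it was 19.0 with both drugs, 17.5 with osimertinib and 28.4 with alpelisib, against 26.9 with vehicle. The arrays with osimertinib were the lowest, but by a narrow margin when alpelisib and L-histidinol were both present. FOS fell by 0.79 ± 0.17 with osimertinib (adjusted p = 3.73e-03), a call that was lost without the array of L-histidinol with osimertinib (-0.50, adjusted p = 0.0742). Both drugs against vehicle gave -0.28 ± 0.17 for FOS, which missed the threshold (adjusted p = 0.224). Both drugs against alpelisib were called (-0.52 ± 0.17, adjusted p = 0.0387), but not without the alpelisib array (-0.65, adjusted p = 0.0830), its L-histidinol partner (-0.38, adjusted p = 0.310) or the array of both drugs (-0.30, adjusted p = 0.360). It was also lost on the mean of probe sets over all genes (adjusted p = 0.0527) and with a limma prior without intensity trend (adjusted p = 0.0674).

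JUNB, JUND and FOSL2 went the other way from FOSL1. JUNB encodes a Jun subunit that activates less strongly than JUN on many promoters. Its intensity with L-histidinol was 538 with both drugs, 549.6 with osimertinib and 409.7 with alpelisib, against 292 with vehicle. Without L-histidinol it was 548 with both drugs, 484 with osimertinib and 371 with alpelisib, against 271 with vehicle. All 6 drug-treated arrays were above both vehicle arrays. JUNB rose by 0.95 ± 0.07 with both drugs (adjusted p = 1.45e-06), by 0.87 ± 0.07 with osimertinib (adjusted p = 1.03e-05) and by 0.47 ± 0.07 with alpelisib (adjusted p = 3.24e-03). The combination and osimertinib were not told apart (0.07 ± 0.07, adjusted p = 0.603). The alpelisib call was lost without the array of L-histidinol with alpelisib (0.44, adjusted p = 0.104).

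FOSL2 encodes FRA2, the other Fos-related subunit without a FOS-type transactivation domain. Its intensity with L-histidinol was 731 with both drugs, 579 with osimertinib and 527 with alpelisib, against 416 with vehicle. Without L-histidinol it was 695 with both drugs, 566 with osimertinib and 490.0 with alpelisib, against 426 with vehicle. With the probe set used, the 4 treatments kept this order in both L-histidinol states, but not every other probe set of FOSL2 did so. Without L-histidinol, for example, another gave 363 with both drugs against 390 with osimertinib. FOSL2 rose by 0.76 ± 0.07 with both drugs (adjusted p = 3.42e-06), by 0.44 ± 0.07 with osimertinib (adjusted p = 4.25e-04) and by 0.27 ± 0.07 with alpelisib (adjusted p = 0.0250), and osimertinib and alpelisib were not told apart (0.17 ± 0.07, adjusted p = 0.141). Its 4 other probe sets gave 0.18 to 0.55 for osimertinib against vehicle. With the mean of all its probe sets the alpelisib call was lost (0.18, adjusted p = 0.186), as it was without 5 of the 8 arrays taken singly: either alpelisib array (0.31, adjusted p = 0.123, and with L-histidinol 0.23, adjusted p = 0.336), either osimertinib array (0.27, adjusted p = 0.0582 and 0.0583) or the array of L-histidinol with vehicle (0.22, adjusted p = 0.0964).

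JUND encodes the Jun subunit that is typically present in resting cells. Its intensity with L-histidinol was 1534 with both drugs, 1364 with osimertinib and 1252 with alpelisib, against 1083 with vehicle. Without L-histidinol it was 1634 with both drugs, 1412 with osimertinib and 1269 with alpelisib, against 1032 with vehicle. The changes were small but in the same order in both L-histidinol states. JUND rose by 0.58 ± 0.06 with both drugs (adjusted p = 1.09e-05), by 0.39 ± 0.06 with osimertinib (adjusted p = 4.69e-04) and by 0.25 ± 0.06 with alpelisib (adjusted p = 0.0209). These calls rest on 1 probe set. The 3 dimmer probe sets of JUND gave 0.09, 0.07 and -0.23 for osimertinib, and the mean over all 4 was not called for osimertinib (0.08, adjusted p = 0.595), for alpelisib (0.00, adjusted p = 0.986) or for both drugs against vehicle (0.23, adjusted p = 0.0681) or alpelisib (0.23, adjusted p = 0.0980). The alpelisib call was also lost without the vehicle array (0.19, adjusted p = 0.144), the alpelisib array (0.26, adjusted p = 0.167) or the array of L-histidinol with alpelisib (0.25, adjusted p = 0.251).

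JUN, the strongest activator of the family, stayed within a narrow range. Its intensity with L-histidinol was 1023 with both drugs, 827 with osimertinib and 1037 with alpelisib, against 891 with vehicle. In its absence the intensity was 952 with both drugs, 898 with osimertinib and 902 with alpelisib, against 811 with vehicle. The treatments overlapped, and only both drugs against vehicle was called (0.21 ± 0.08, adjusted p = 0.0451). That call was lost when any 1 of the 6 arrays other than the osimertinib array and its L-histidinol partner was left out. The differences were then 0.18 to 0.25, with adjusted p of 0.0640 to 0.200. For osimertinib the probe set used gave 0.02 ± 0.08 (adjusted p = 0.898), and the 3 others gave -0.13, -0.19 and -0.23. The probe set used is named as one that may cross-hybridize. Leaving out such probe sets gave 0.14 for both drugs (adjusted p = 0.395).

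FOSB ranged only from 12.4 to 15.2 in intensity and EGR3 from 4.26 to 5.72, with mean log2 intensities of 3.79 and 2.30. Both are inducible factors of the same families, and neither was called in any of the 10 comparisons. No difference in them was detectable at these dim intensities, which does not show that there was none.

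**Figure D2:**
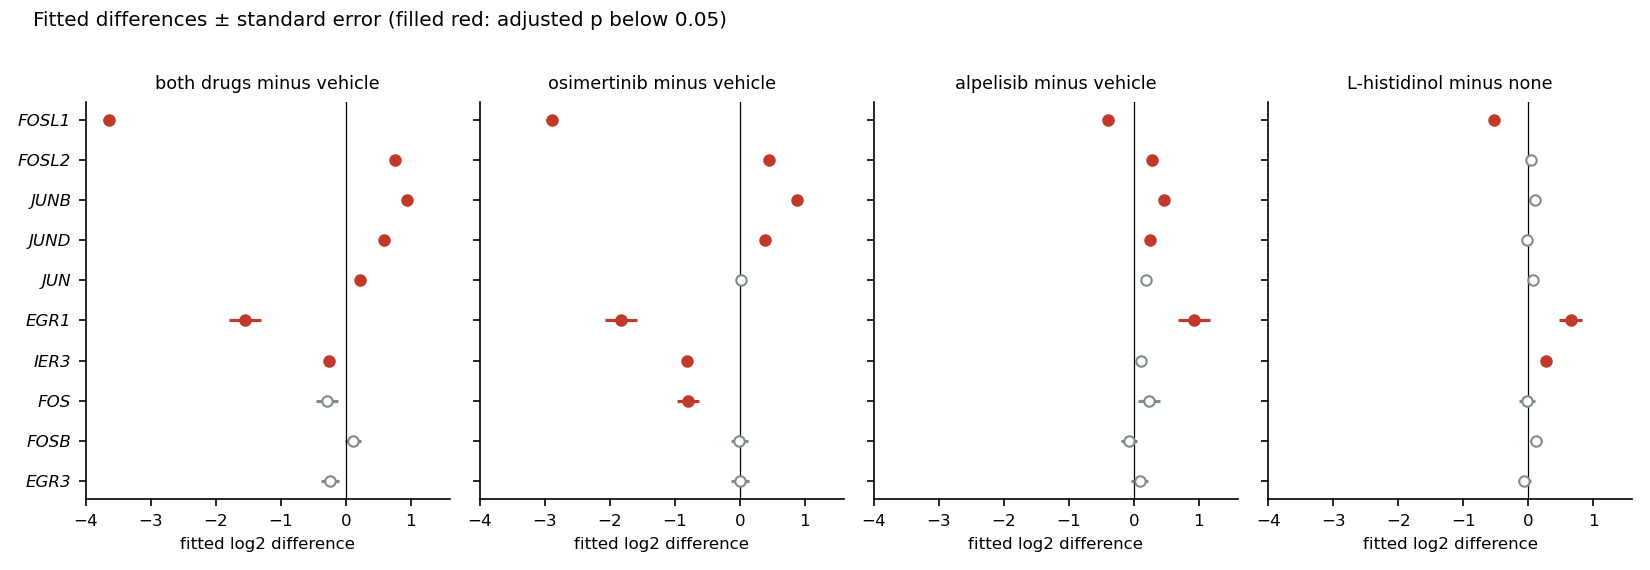
Fitted log2 difference ± standard error for each gene in 4 comparisons, each over all 8 arrays. Filled red points passed the adjusted p of 0.05. FOSL1 was lowest with both drugs (-3.65) and with osimertinib (-2.89), where JUNB, FOSL2 and JUND were higher. For FOSL1 the differences with alpelisib (-0.39) and L-histidinol (-0.52) were smaller, and EGR1 was higher with both of these (0.93 and 0.65).

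**Figure D3:**
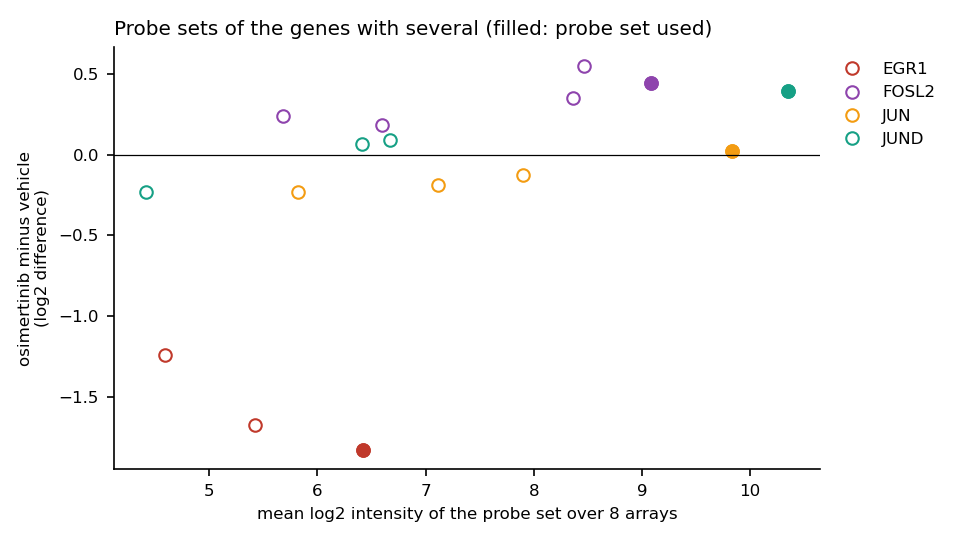
Osimertinib minus vehicle (log2 difference, both L-histidinol states averaged) for every probe set of the 4 genes with several, against the probe set's mean log2 intensity. All 3 EGR1 probe sets were below 0 and all 5 FOSL2 probe sets above 0, while those of JUND and JUN lay on both sides of it.

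Alpelisib was set against vehicle on the arrays without osimertinib. The activity of PI3K and EGFR was not measured. EGR1 rose here, where it fell with osimertinib. In all, 5 of the 10 genes were called, 4 higher and 1 lower, against 11.5% of all genes (7.08% higher and 4.38% lower). Besides JUNB, FOSL2 and JUND, EGR1 rose by 0.93 ± 0.25 (1.9-fold, adjusted p = 0.0326). It was higher in both L-histidinol states, by 0.83 with L-histidinol and by 1.02 without it, but the call was lost without the vehicle array (0.51, adjusted p = 0.320), the alpelisib array (1.22, adjusted p = 0.0673) or the array of L-histidinol with alpelisib (0.64, adjusted p = 0.405), and when its probe sets were averaged (0.78, adjusted p = 0.187). Without the alpelisib array 1 gene was called and without its L-histidinol partner 0, beside 600 and 175 of all genes.

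Set against alpelisib directly, osimertinib gave 5 called genes of 10, 1 higher and 4 lower, against 11% of all genes (5.54% higher and 5.51% lower). EGR1 was 6.76-fold lower with osimertinib than with alpelisib (-2.76 ± 0.25, adjusted p = 5.8e-05), FOSL1 5.65-fold (-2.5 ± 0.09, adjusted p = 7.33e-08), FOS 2.03-fold (-1.02 ± 0.17, adjusted p = 2.95e-03) and IER3 1.9-fold (-0.92 ± 0.07, adjusted p = 1.19e-05). JUNB was higher (0.40 ± 0.07, adjusted p = 5.82e-03). The FOS call was lost without the array of L-histidinol with osimertinib (-0.73, adjusted p = 0.0576) or with alpelisib (-0.89, adjusted p = 0.0608), and the JUNB call without either of these (0.35, adjusted p = 0.121, and 0.43, adjusted p = 0.0621) or the alpelisib array (0.38, adjusted p = 0.136).

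Both drugs against vehicle called 7 of the 10 genes, 4 higher and 3 lower, against 40.6% of all genes (21.4% higher and 19.2% lower). Adding osimertinib to alpelisib also called 7, 3 higher and 4 lower, against 29% of all genes (14.6% higher and 14.4% lower), led by FOSL1 (-3.25 ± 0.09, adjusted p = 8.14e-09) and EGR1 (-2.48 ± 0.25, adjusted p = 2.84e-05). Adding alpelisib to osimertinib called 3 of the 10, against 13.4% of all genes (5.96% higher and 7.41% lower): FOSL1 fell further (-0.75 ± 0.09, adjusted p = 5.21e-04), while IER3 (0.55 ± 0.07) and FOSL2 (0.31 ± 0.07, adjusted p = 0.0111) rose. In 3 of the 4 other probe sets of FOSL2 this difference was 0.02 to 0.03, and with the mean of its probe sets the call was lost (0.14, adjusted p = 0.294). It was also lost without the osimertinib array (0.32, adjusted p = 0.105) or its L-histidinol partner (0.31, adjusted p = 0.137). For FOS the difference of 0.51 ± 0.17 missed the threshold (adjusted p = 0.0722), but it was called without the osimertinib array (0.80, adjusted p = 0.0380) or the array of both drugs (0.73, adjusted p = 0.0496). JUND was not called here (0.19 ± 0.06, adjusted p = 0.0617), but was without either vehicle array (adjusted p = 0.0321 and 0.0324). The comparisons with vehicle share the vehicle arrays, and those between drugs share the drug arrays with them, so they are not independent of each other. The median difference from vehicle over the 10 genes was -0.06 with both drugs, -0.00 with osimertinib and 0.21 with alpelisib, where over all genes it was -0.00, 0.01 and -0.00, and the 10 genes moved both ways around it.

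Whether the drugs together differed from their added single effects was tested as an interaction, which was called for 0 of the 10 genes by limma, against 0.0303% of all genes. At an unadjusted p below 0.05 there were 1748 of all genes and 3 of the 10: IER3 (0.44 ± 0.09, adjusted p = 0.164), JUNB (-0.40 ± 0.11, adjusted p = 0.296) and FOSL1 (-0.36 ± 0.12, adjusted p = 0.406). In these estimates the combination was less low for IER3, less high for JUNB and lower for FOSL1 than the sum of the single drugs. None of the 3 was called.

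Averaged over the 4 drug treatments, FOSL1 fell with L-histidinol, and EGR1 and IER3 rose. That made 3 of 10 called, 2 higher and 1 lower, against 20.6% of all genes (11.4% higher and 9.17% lower). FOSL1 fell by 0.52 ± 0.06 log2 units (adjusted p = 2.17e-04), by 0.44 with both drugs, 0.70 with osimertinib, 0.58 with alpelisib and 0.38 with vehicle, so that it was lower in all 4 array pairs. IER3 rose by 0.28 ± 0.05 (adjusted p = 1.91e-03), by 0.26 with both drugs, 0.18 with osimertinib, 0.32 with alpelisib and 0.34 with vehicle. The ACTB ratio was higher on the arrays with L-histidinol and the GAPDH ratio was not. The part of RNA quality in these changes was not tested.

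EGR1 rose by 0.65 ± 0.17 over the 4 treatments (adjusted p = 0.0201), but unevenly. The difference was 0.04 with both drugs and 0.20 with osimertinib, against 1.09 with alpelisib and 1.28 with vehicle. The other probe sets gave -0.16 and -0.24 with both drugs and 0.09 and -0.08 with osimertinib, against 1.31 and 1.17 with alpelisib and 1.46 and 0.91 with vehicle. On the arrays with osimertinib these other probe sets were dim, with log2 intensities of at most 4.64 and 4.12, under the limit of 5. The probe set used reached at most 5.51 there. Whether such low intensities hid a response to L-histidinol was not tested. In each of the 3 probe sets the 2 differences with osimertinib present were below the 2 without it. The test of this difference gave -1.06 ± 0.14 for the L-histidinol response with osimertinib minus that without it, with an adjusted p of 0.164, so it was not called. The average call was lost without the vehicle array (0.45, adjusted p = 0.0844), the array of L-histidinol with vehicle (0.45, adjusted p = 0.0862) or either alpelisib array (0.51, adjusted p = 0.129 and 0.131), when its probe sets were averaged (0.59, adjusted p = 0.114), and with a limma prior without intensity trend (0.65, adjusted p = 0.0746).

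**Figure D4:**
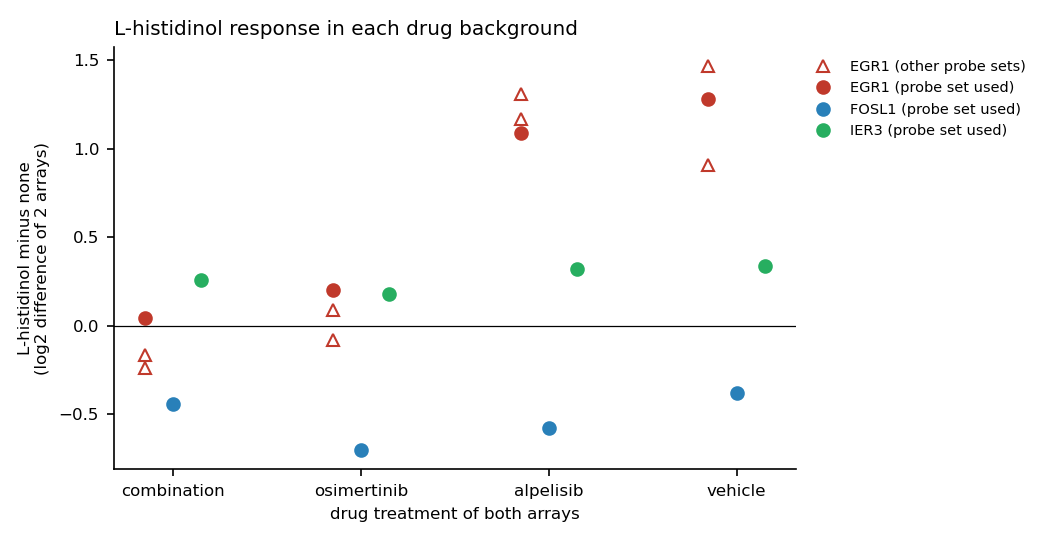
Log2 difference between the array with L-histidinol and its partner without it, in each drug treatment, for EGR1 (3 probe sets), FOSL1 and IER3, 1 array pair a point. EGR1 lay at -0.24 to 0.20 with osimertinib or both drugs and at 0.91 to 1.46 with alpelisib or vehicle, whereas FOSL1 was below 0 and IER3 above 0 throughout. The EGR1 probe sets other than the one used were dim on the arrays with osimertinib.

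For the L-histidinol response as changed by osimertinib or by alpelisib, 0 of 10 genes and 0% of all genes were called by limma, with 1653 and 998 of all genes at an unadjusted p below 0.05. Of the 10 genes there was 1 each at that p, EGR1 for osimertinib and FOS for alpelisib (0.54 ± 0.19, adjusted p = 0.950). This fit has 1 residual degree of freedom and takes its prior from the additive fit. With limma's own prior for it, 1 of the 10 genes was called for osimertinib, EGR1 (adjusted p = 2.03e-09), and 0 for alpelisib, beside 896 and 278 of all genes. That prior had 102.7 degrees of freedom, so a gene's own spread had almost no part in these calls.

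Among other immediate early genes, 28 of a list of 30 were measured. With osimertinib 8 rose and 4 fell, where 16.4% of all genes rose and 14% fell, and their median difference was 0.05 against 0.01 over all genes. PHLDA1, an ERK-responsive gene of the pleckstrin homology-like family, fell by 1.77 ± 0.08 (adjusted p = 1.36e-07) and the small Maf factor MAFF by 1.42 ± 0.11 (adjusted p = 4.72e-06). The stress-responsive gene GADD45B rose by 0.93 ± 0.06 and the stress-induced AP-1 partner ATF3 by 0.73 ± 0.08. The list thus held members moving each way, as the 10 genes did.

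With both drugs 15 of the 28 rose and 5 fell, where 21.4% of all genes rose and 19.2% fell (median 0.41 against -0.00 over all genes). GADD45B rose by 1.76 ± 0.06, ATF3 by 1.46 ± 0.08 and the MAP kinase phosphatase DUSP1 by 1.35 ± 0.11, while PHLDA1 fell by 1.87 ± 0.08. Adding alpelisib to osimertinib raised 13 and lowered 1, where it raised 5.96% and lowered 7.41% of all genes, with a median of 0.30 against -0.01 over all genes. MAFF led at 1.41 ± 0.11, with an intensity of 268 and 257 with both drugs (with and without L-histidinol), against 94.6 and 104 with osimertinib. Alpelisib alone raised 11 and lowered 1, where it raised 7.08% and lowered 4.38% of all genes (median 0.20 against -0.00), among them the Krüppel-like factor KLF6 (0.59 ± 0.07), MAFF (0.57 ± 0.11) and the nuclear receptor NR4A2 (0.55 ± 0.14). With L-histidinol 9 rose and 4 fell, where 11.4% of all genes rose and 9.17% fell (median 0.06 against -0.01). KLF4 rose by 1.01 ± 0.06, ATF3 by 0.82 ± 0.06 and MYC by 0.60 ± 0.05, while KLF2 fell by 0.62.

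**Figure D5:**
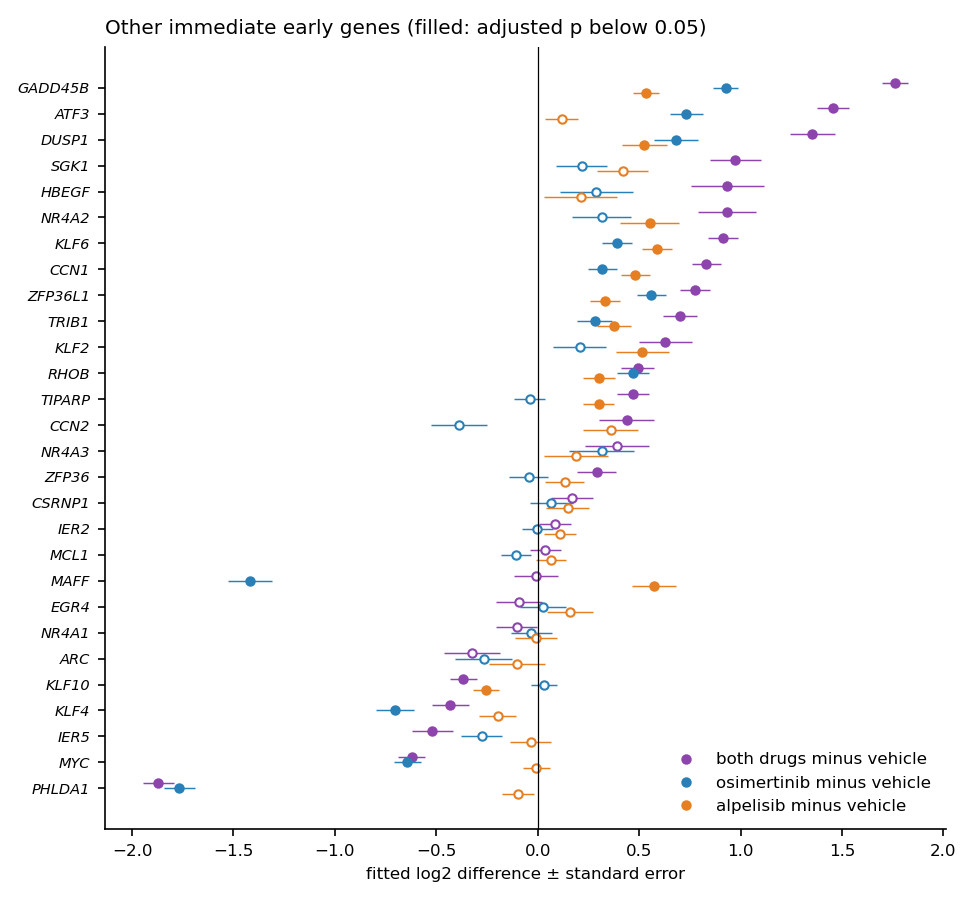
Fitted log2 difference ± standard error of 28 other immediate early genes with both drugs (purple), osimertinib (blue) and alpelisib (orange), each against vehicle, in the order of the difference with both drugs. Filled points passed the adjusted p of 0.05. GADD45B, ATF3 and DUSP1 were highest with both drugs, PHLDA1 was low with osimertinib and with both drugs, and MAFF was low with osimertinib and near 0 with both drugs.

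Other proteins that can pair with Jun or Fos subunits were measured for 13 of 16 listed genes, ATF3 and MAFF also being in the list above. With osimertinib 6 rose and 3 fell, against 30.4% of all genes called either way, with a median of 0.05. MAF, a large Maf factor, rose by 1.98 ± 0.14 (adjusted p = 3.21e-06), and the Jun dimerization protein JDP2, an AP-1 repressor, by 0.69. With both drugs 7 rose and 3 fell, against 40.6% of all genes (median 0.29), MAF by 2.18 and BATF by 0.69, whereas BATF3 fell by 0.76. With L-histidinol 8 rose and 1 fell, against 20.6% of all genes (median 0.33), including ATF4, the regulator of the amino acid response (0.82), ATF3 (0.82), JDP2 (0.80) and CREB5 (0.55).

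Textbook AP-1 targets were measured for 16 of 18 listed genes. With osimertinib 4 rose and 7 fell, where 16.4% of all genes rose and 14% fell, with a median of -0.24. Cyclin D1, CCND1, fell by 1.85 and the collagenase MMP1, which was dim (mean log2 intensity 3.86), by 1.51. The secreted phosphoprotein SPP1 rose by 1.15 and the cytokine IL6 by 1.0. With both drugs 4 rose and 5 fell, where 21.4% of all genes rose and 19.2% fell (median -0.08). The largest change was in CCND1, which fell by 2.41. The collagenase MMP13, also dim, rose by 1.67, IL6 by 1.59 and SPP1 by 1.38. With alpelisib 2 rose and 0 fell, against 11.5% of all genes called either way (median 0.20), SPP1 by 0.63 and the urokinase gene PLAU by 0.33. With L-histidinol 4 rose and 4 fell, against 20.6% of all genes (median -0.11), involucrin, IVL, falling by 1.12 and VEGFA rising by 0.79.

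Corepressors and targets of EGR factors were measured for 6 of 7 listed genes, where the share of all genes called was 40.6% with both drugs, 30.4% with osimertinib, 11.5% with alpelisib and 20.6% with L-histidinol. The tissue factor gene F3 fell by 0.66 with osimertinib, the 1 call in that comparison (median of the list 0.02), and rose by 0.37 with L-histidinol, also the 1 call (median 0.15). The EGR corepressor NAB1 rose by 0.52 with alpelisib, again the 1 call (median 0.16). With both drugs 3 rose and 1 fell (median 0.24), PDGFB by 0.58, NAB1 by 0.45 and PDGFA by 0.35, with F3 falling by 0.54.

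For the 5 genes that ranged over at least 1 log2 unit, the genes with the most similar profile over the 8 arrays were sought by Pearson correlation among 11627 genes with a mean log2 intensity of at least 5. These correlations describe 8 arrays that share the drug treatments. FOSL1 was closest to NCEH1 (r = 0.997), SPHK1 (0.993) and MARCHF4 (0.993). JUNB was closest to DUSP18 (0.995), UBE2H (0.995) and SAMTOR (0.995). EGR1 was closest to CBLC (0.97), TAF8 (0.962) and SMURF2 (0.957), IER3 to TOX2 (0.971), IFNGR2 (0.971) and IRAK2 (0.97), and the dim FOS to LOC390705 (0.951), FOXQ1 (0.948) and NOG (0.942).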

How the data were processed

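The authors deposited 1 linear signal intensity per probe set and array, made with RMA and affy per the submitters' processing notes, their versions being not given in the sources used here. Since log2 values had been foreseen in the design, each intensity was log2-transformed first, with no further scaling. Probe sets with exactly 1 gene symbol were kept (41091 of 54675), and each gene was represented by the one with the highest mean. Differences came from limma 3.58.1 in R 4.3.3 with L-histidinol and a drug treatment of 4 levels as additive terms (3 residual and 8.08 prior degrees of freedom, intensity trend). The L-histidinol interactions were fitted with all 2-way terms in the model. Adjusted p-values are Benjamini-Hochberg over 19775 genes. Genes and lists were chosen with earlier results of these data known. The text names all 10 members, up to 4 called genes per list and comparison, and the 3 nearest profiles of members ranging over 1 log2 unit or more. The scripts were tested on simulated data. Tables and plots used Python 3.11.15, pandas 2.3.3 and matplotlib 3.10.9. Alternatives changed the probe sets, scaling, pseudocount, dim filter, prior, model and arrays used.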

Additional observations from a re-analysis of the deposited data

How the results depend on the processing

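Under the alternatives, 1217 of 1280 values for single genes and comparisons kept their side of the threshold, 56 lost a call, 7 gained one, and 0 called values changed sign. FOSL1 lost a call only for alpelisib against vehicle, and IER3, FOSB and EGR3 changed no call in any alternative that could measure them. Probe sets marked _x_at or _s_at, left out, removed EGR1, JUND and IER3. The 7 remaining genes gave 1 call for L-histidinol, 4 for osimertinib against vehicle and 3 for alpelisib. They gave 3 for both drugs, 4 for adding osimertinib to alpelisib and 3 for osimertinib against alpelisib. With all probe sets kept, the shares of all genes called were 20.6% for L-histidinol, 30.4% for osimertinib and 11.5% for alpelisib. For the other comparisons they were 40.6% for both drugs, 29% for adding osimertinib to alpelisib and 11% for osimertinib against alpelisib. The dim filter left 7 genes and gained a call of JUND for both drugs against osimertinib (0.19, adjusted p = 0.0448). The model with all 2-way terms gained a call of FOS in the same comparison (0.51, adjusted p = 0.0375). Alpelisib against vehicle was the least stable count, with 2 calls on the mean of probe sets and 1 with a prior without trend, where the number of all genes called was 1222 and 779 against 2267. Over all genes, leaving out 1 array in turn gave 2160 to 4056 calls for L-histidinol (4069 with all arrays), 3755 to 6375 for osimertinib (6011), 175 to 3009 for alpelisib (2267), 508 to 3271 for both drugs against osimertinib (2643), 2968 to 6282 against alpelisib (5735), 452 to 2751 for osimertinib against alpelisib (2185) and 0 to 68 for the drug interaction (6). Averaging probe sets gave 1646 for both drugs against osimertinib and 0 for the drug interaction, and the prior without trend 1017, 1042 for osimertinib against alpelisib and 0 for the interaction. Among the 10 genes the number of calls ranged from 2 to 3 for L-histidinol, 6 to 7 for osimertinib, 0 to 5 for alpelisib, 6 to 7 for both drugs against vehicle, 2 to 4 for both drugs against osimertinib, 6 to 7 against alpelisib, 3 to 5 for osimertinib against alpelisib and 0 for the drug interaction. These ranges are over the arrays left out in turn. On the mean of probe sets, both drugs against vehicle also lost JUN (0.16, adjusted p = 0.145) and JUND (0.23, adjusted p = 0.0681). Both drugs against alpelisib lost FOS (-0.52, adjusted p = 0.0527) and JUND (0.23, adjusted p = 0.0980) in that setting. Limma's own prior gave 1 call, EGR1, for L-histidinol by osimertinib. The prior without trend also lost, with unchanged differences, the alpelisib calls of FOSL1 (adjusted p = 0.0755), FOSL2 (0.109), JUND (0.132) and EGR1 (0.117), that of FOSL2 for both drugs against osimertinib (0.0677) and that of JUN for both drugs against vehicle (0.134). Centring the arrays lost the last of these too (0.19, adjusted p = 0.0739). The cause of these moves was not tested, apart from the fewer genes measured without marked probe sets. The additive fit compares the arrays with and without L-histidinol within each drug treatment. Beyond that blocking by treatment, no paired analysis was possible because each condition had 1 array, so that no replicate numbers were shared. The number of arrays limits the precision.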

Other observations

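Upstream kinases and transcription factors of the immediate early response were measured for 15 of 17 listed genes. With both drugs 4 rose and 4 fell, against 40.6% of all genes called (median -0.05). With osimertinib 3 rose and 3 fell, against 30.4% (median -0.03), with alpelisib 1 rose, against 11.5%, and with L-histidinol 2 rose and 3 fell, against 20.6% (median 0.06). MAPK3, which encodes ERK1, rose by 0.39 with osimertinib and MAP2K1, which encodes MEK1, fell by 0.49. The SRF coactivator MRTFB rose by 0.52 and the S6 kinase gene RPS6KA3 by 0.44. RPS6KA3 was also the 1 gene called with alpelisib (0.39). With L-histidinol the ETS factor ELK4 rose by 0.49.

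Across the 8 arrays FOSL2, JUNB and JUND correlated with each other at r = 0.93 to 0.96 and with FOSL1 at r = -0.89 to -0.93. EGR1, IER3 and FOS correlated with each other at r = 0.80 to 0.87. These values describe the same 8 arrays and share their drug treatments. Each gene entered through its brightest probe set only. For JUND that probe set gave 0.39 for osimertinib against vehicle, where the dimmer ones gave 0.09, 0.07 and -0.23.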
